A study of Mus musculus with 6 samples.

Results

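The nuclear genes that copy and transcribe mitochondrial DNA were examined in embryonic mouse hearts with a cardiomyocyte deletion of Mrps5, which encodes a protein of the small mitochondrial ribosomal subunit. The group was defined by gene name, with earlier results of these data known, as Tfam, Polg, Polg2, Twnk, Polrmt, Tfb1m, Tfb2m, Ssbp1, Lrpprc and Slirp. All 10 were found among the 26199 genes of the deposited table, and all 10 passed the filter on low values, which asked for 1 FPKM or more in 3 or more libraries and was passed by 13262 genes. Hearts were taken at embryonic day 12 from littermates of the genotypes Mrps5 fl/fl (control, ctrl, 3 libraries) and Mrps5 fl/fl; cTNT-Cre (mutant, cKO, 3 libraries). Each library was a pool of hearts. Both groups carry the floxed allele on both chromosomes, and only the mutants carry Cre, driven by the cardiac troponin T promoter, so recombination is directed to cardiomyocytes while the other cells of the heart keep Mrps5. Whole hearts were sequenced, so fewer cells of a type and less RNA per cell cannot be told apart in any value below.

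Mitochondrial DNA is a small circular genome whose copies are packed into nucleoids by TFAM. It is replicated by a dedicated DNA polymerase, with its catalytic subunit encoded by Polg and its accessory subunit by Polg2, together with the helicase Twinkle (Twnk) and the single-stranded DNA binding protein SSBP1. Transcription is carried out by the RNA polymerase POLRMT with TFAM and TFB2M at the promoters, and yields long precursor RNAs of each strand that are cut into the individual mRNAs, rRNAs and tRNAs. TFB1M, a relative of TFB2M, methylates the rRNA of the small mitochondrial ribosomal subunit. LRPPRC and SLIRP form a complex that binds the mature mRNAs, keeps them stable and aids their polyadenylation.

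Because many genes of mitochondrial function are known as targets of the nuclear respiratory factors NRF1 and NRF2, the latter an ETS family factor also called GABP, their promoters were searched for the core letters of both motifs. RefSeq promoters (GRCm38.p6, 250 bases before to 50 bases after each transcription start) were found for all 10 genes. The ETS core CCGGAAG, on either strand, stood in the promoter of 7 of the 10 genes (Polg, Polg2, Polrmt, Slirp, Ssbp1, Tfam and Twnk) and of 9.93% of the 27025 genes with a promoter in the table. A further promoter of Twnk did not hold it. The NRF1 core GCGCATGC, on either strand, stood in 2 of the 10 (Polrmt and Tfb2m) and in 3.05% of all genes. No match of the first overlapped a match of the second. In 6 of the 7 genes with the ETS core, all but Twnk, a match began 48 to 29 bases before the start, a window that 1.49% of all genes share and that was chosen after the positions were seen. These shares are over all genes with a promoter, whether expressed here or not, and none was computed for expressed genes alone. The promoters of Lrpprc and Tfb1m held neither core, which says only that these letters are not in this window. The promoters of Lrpprc, Ssbp1 and Polg2, whose mRNA values separated the groups below, are shown with those of Slirp, the partner of Lrpprc, and of Tfam, 5′ to 3′ on the strand of the gene. Capitals mark the ETS core or its reverse complement CTTCCGG.
Lrpprc, chr17:84790737-84791036, minus strand: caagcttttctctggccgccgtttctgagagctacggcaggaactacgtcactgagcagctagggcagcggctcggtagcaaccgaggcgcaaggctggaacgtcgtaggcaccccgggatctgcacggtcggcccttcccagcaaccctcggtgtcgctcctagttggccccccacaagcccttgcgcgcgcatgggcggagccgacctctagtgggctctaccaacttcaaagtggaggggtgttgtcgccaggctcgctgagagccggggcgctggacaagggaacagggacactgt
Slirp, chr12:87443646-87443945, plus strand: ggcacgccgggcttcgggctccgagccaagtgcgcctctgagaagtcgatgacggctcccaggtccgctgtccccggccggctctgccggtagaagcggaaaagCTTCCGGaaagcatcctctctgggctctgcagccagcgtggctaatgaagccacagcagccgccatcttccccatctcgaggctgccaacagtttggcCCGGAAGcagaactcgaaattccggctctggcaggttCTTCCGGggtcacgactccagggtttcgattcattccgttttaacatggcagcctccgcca
Ssbp1, chr6:40471218-40471517, plus strand: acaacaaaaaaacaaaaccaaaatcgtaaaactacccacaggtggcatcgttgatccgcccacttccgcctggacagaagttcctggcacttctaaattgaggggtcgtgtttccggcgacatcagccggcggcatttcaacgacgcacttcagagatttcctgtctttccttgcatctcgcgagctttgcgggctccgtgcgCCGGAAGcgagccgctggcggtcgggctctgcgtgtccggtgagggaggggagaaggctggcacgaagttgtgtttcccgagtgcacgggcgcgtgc
Polg2, chr11:106779488-106779787, minus strand: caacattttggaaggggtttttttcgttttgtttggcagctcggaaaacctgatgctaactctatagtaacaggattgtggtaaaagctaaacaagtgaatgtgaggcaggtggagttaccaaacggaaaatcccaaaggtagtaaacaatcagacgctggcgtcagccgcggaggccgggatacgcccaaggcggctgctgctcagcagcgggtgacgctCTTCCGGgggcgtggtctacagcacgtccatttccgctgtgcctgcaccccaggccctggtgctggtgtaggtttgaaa
Tfam, chr10:71237995-71238294, minus strand: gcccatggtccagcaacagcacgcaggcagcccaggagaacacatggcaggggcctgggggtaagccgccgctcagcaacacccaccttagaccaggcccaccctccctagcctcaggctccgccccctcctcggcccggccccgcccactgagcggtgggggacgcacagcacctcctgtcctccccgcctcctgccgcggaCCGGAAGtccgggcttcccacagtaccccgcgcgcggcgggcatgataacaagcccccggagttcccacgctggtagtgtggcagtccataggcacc

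The libraries were checked before the comparison. Values are FPKM, fragment counts divided by the length of the transcript and the size of the library, and where 3 values are given for a group they stand in the order of replicates 1, 2 and 3. FPKM summed to between 454692 and 515952 per library, and between 12832 and 13516 genes per library had an FPKM of at least 1. The table gives no read counts, so depth is known only roughly. The commonest ratio among low values, which 28 to 45 of 328 to 390 genes shared, put the other libraries at 1.16 to 1.61 times control replicate 1. Mrps5 itself stood at 9.65, 11.4 and 10.4 FPKM in controls but at 5.28, 7.41 and 10.4 in the libraries labelled mutant. The last of these, mutant replicate 3, was thus inside the control range, and the log2 fold change over all libraries was -0.44 (standard error 0.19, adjusted p = 0.339 from limma). Each direction given below therefore includes a library labelled mutant in which the deleted gene was within the control range. All 10 cardiomyocyte markers were present, 9 of them with a lower mean in mutants, and their summed share of all FPKM was 1.52% to 1.82% in controls and 1.27% to 1.57% in mutants. Erythroid markers, of which 10 of 11 were listed in the table, held 12.0% to 13.3% of all FPKM in controls and 23.5%, 10.8% and 21.9% in mutants, and 9 of the 10 had a higher mean in mutants. None of the markers in either list was under 1 FPKM on average. The part of either cell type in the values below was not tested unless a value is given.

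None of the mRNAs of the replication and transcription machinery passed the adjusted test between mutant and control hearts, and their mean values lay close together. Of the 10 genes, 3 had a higher and 7 a lower mean log2 value in mutants (5 and 5 with quantile normalization, where Twnk and Polrmt turned higher), with a median log2 fold change of -0.02, where all 13262 genes tested also had a median of -0.02. The median size of the log2 fold change, regardless of direction, was 0.07 in the 10 genes and 0.12 over all genes. By limma with Benjamini-Hochberg adjustment over all genes, 0 of the 10 had an adjusted p under 0.05, against 0.0829% of all genes. At an unadjusted p under 0.05, 1 of the 10 was higher, Lrpprc, against 5.58% of all genes, and 0 were lower, against 9.43%. In 7 of the 10 the values of the groups overlapped. Only Lrpprc was separated upwards, as were 7.74% of all genes, and Polg2 and Ssbp1 were separated downwards, as were 13.03% of all genes. A count of 1 or 2 among 10 genes is near these backgrounds.

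**Figure D1:**
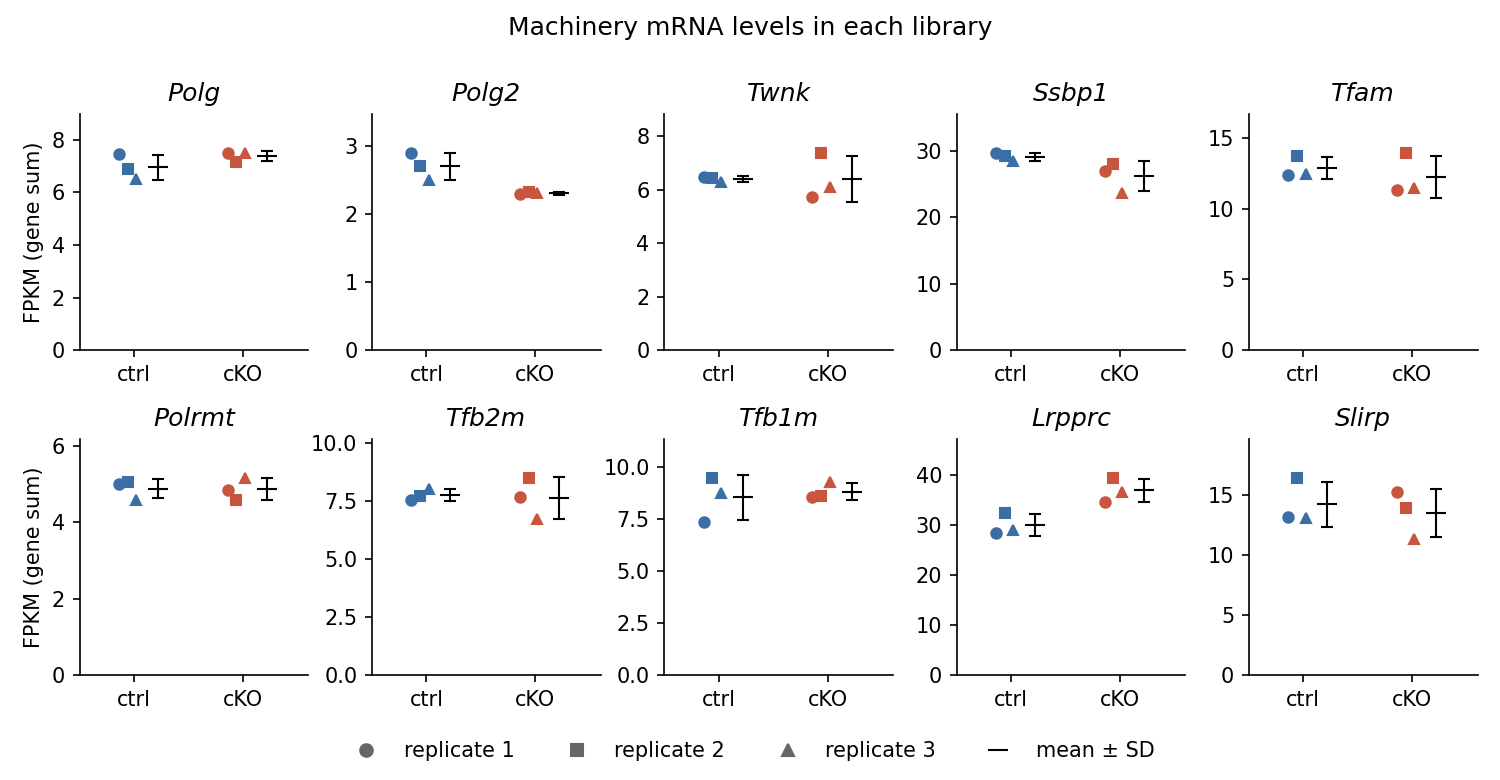
FPKM of each machinery gene, summed over its transcripts, in the 3 control (ctrl) and 3 mutant (cKO) libraries. Points are libraries, with a symbol for each replicate number, bars give the mean ± SD, and every axis starts at 0. The mutant points of Lrpprc lie above, and those of Polg2 and Ssbp1 below, all control points.

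FPKM allows levels to be compared between genes. In control hearts the order of mean FPKM, from the highest, was Lrpprc (29.9), Ssbp1 (29.1), Slirp (14.2), Tfam (12.9), Tfb1m (8.54), Tfb2m (7.75), Polg (6.95), Twnk (6.40), Polrmt (4.89) and Polg2 (2.70). In mutant hearts the order was the same. Among neighbours in the control order, Lrpprc and Ssbp1, Slirp and Tfam, and Tfb1m and Tfb2m had overlapping values. Of these pairs, Lrpprc and Ssbp1 did not overlap in mutants (34.7 to 39.4 against 23.7 to 28.1), and neither did Tfb1m and Tfb2m (8.58 to 9.29 against 6.70 to 8.48). Conversely, Tfb2m and Polg, and Polg and Twnk, overlapped in mutants but not in controls. In mutants Polg was at 7.16 to 7.50 and Twnk at 5.73 to 7.37. Summed over the 10 genes, controls reached 123 ± 5.85 FPKM (SD, n = 3) and mutants 126 ± 6.96 (SD, n = 3), a difference within the spread of the libraries (two-sided exact permutation p = 0.6, where 3 against 3 allows no p below 0.1).

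Among the replication proteins, Polg (ENSMUSG00000039176), encoding the catalytic subunit of the DNA polymerase, measured 7.47, 6.88 and 6.51 FPKM in controls and 7.50, 7.16 and 7.49 in mutants. The mutant values lay around the highest control and overlapped the controls (log2 fold change 0.08, standard error 0.09, 95% confidence interval -0.13 to 0.28, adjusted p = 0.734). Polg2 (ENSMUSG00000020718), encoding the accessory subunit that clamps the polymerase to DNA, was at 2.90, 2.71 and 2.50 in controls and at 2.29, 2.33 and 2.30 in mutants. All mutant libraries were below all control libraries and close to each other, and the difference did not pass the test (log2 fold change -0.16, standard error 0.11, 95% confidence interval -0.41 to 0.08, adjusted p = 0.510).

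Twnk (ENSMUSG00000025209), the helicase gene, was at 6.49, 6.43 and 6.28 FPKM in controls and at 5.73, 7.37 and 6.09 in mutants. The mutants spread to both sides of the controls, and the mean was 6.40 in each group (log2 fold change -0.01, 95% confidence interval -0.25 to 0.24, adjusted p = 0.987). Ssbp1 (ENSMUSG00000029911), whose product coats single-stranded mitochondrial DNA, measured 29.7, 29.2 and 28.5 FPKM in controls and 27.0, 28.1 and 23.7 in mutants. Its mutant values were lower than every control, most of all in the library labelled mutant replicate 3. The log2 fold change was -0.15 (standard error 0.09, 95% confidence interval -0.35 to 0.05, adjusted p = 0.464), and without that library it was -0.08.

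Among the transcription proteins, Tfam (ENSMUSG00000003923) was at 12.4, 13.7 and 12.4 FPKM in controls and at 11.3, 13.9 and 11.4 in mutants. Mutant replicate 2 was the highest of all libraries and the other mutants were below every control, so the groups overlapped. The log2 fold change was -0.07 (standard error 0.10, 95% confidence interval -0.31 to 0.17, adjusted p = 0.796), and it ran from -0.16 (without mutant replicate 2) to -0.02 (without mutant replicate 1) when each library was left out in turn. Polrmt (ENSMUSG00000020329), the RNA polymerase gene, was at 5.00, 5.06 and 4.60 in controls and at 4.84, 4.59 and 5.16 in mutants, which interleave (log2 fold change -0.01, 95% confidence interval -0.22 to 0.21, adjusted p = 0.987).

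Tfb2m (ENSMUSG00000026492), whose product opens the promoter for POLRMT, measured 7.54, 7.71 and 8.02 FPKM in controls and 7.66, 8.48 and 6.70 in mutants. The highest and the lowest value were both in mutant libraries (log2 fold change -0.03, 95% confidence interval -0.26 to 0.21, adjusted p = 0.925). Tfb1m (ENSMUSG00000036983), the rRNA methyltransferase gene, was at 7.39, 9.48 and 8.76 in controls and at 8.58, 8.62 and 9.29 in mutants. Here the controls spread more widely than the mutants, and the log2 fold change was 0.05 (95% confidence interval -0.19 to 0.29, adjusted p = 0.867).

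Of the genes acting on mature RNA, Lrpprc (ENSMUSG00000024120) measured 28.4, 32.5 and 28.9 FPKM in controls and 34.7, 39.4 and 36.7 in mutants. Every mutant library was above every control, by 1.23 times in the mean, including the library labelled mutant replicate 3. The log2 fold change was 0.29 (standard error 0.09, 95% confidence interval 0.09 to 0.50), with an unadjusted p of 0.0106 and an adjusted p of 0.207 from limma, which ranged from 0.155 to 0.539 over 15 alternative analyses. Lrpprc thus did not pass the adjusted threshold. The part of erythroid cells in this difference was not tested. The log2 fold change of Lrpprc was 0.36 with the erythroid level as a covariate and 0.27 with quantile normalization. It was 0.26 when libraries were rescaled to nuclear genes outside the erythroid list. Slirp (ENSMUSG00000021040), its partner, was at 13.2, 16.4 and 13.1 FPKM in controls and at 15.3, 13.9 and 11.3 in mutants. The groups overlapped, and the log2 fold change was -0.07 (standard error 0.13, 95% confidence interval -0.37 to 0.23, adjusted p = 0.834).

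**Figure D2:**
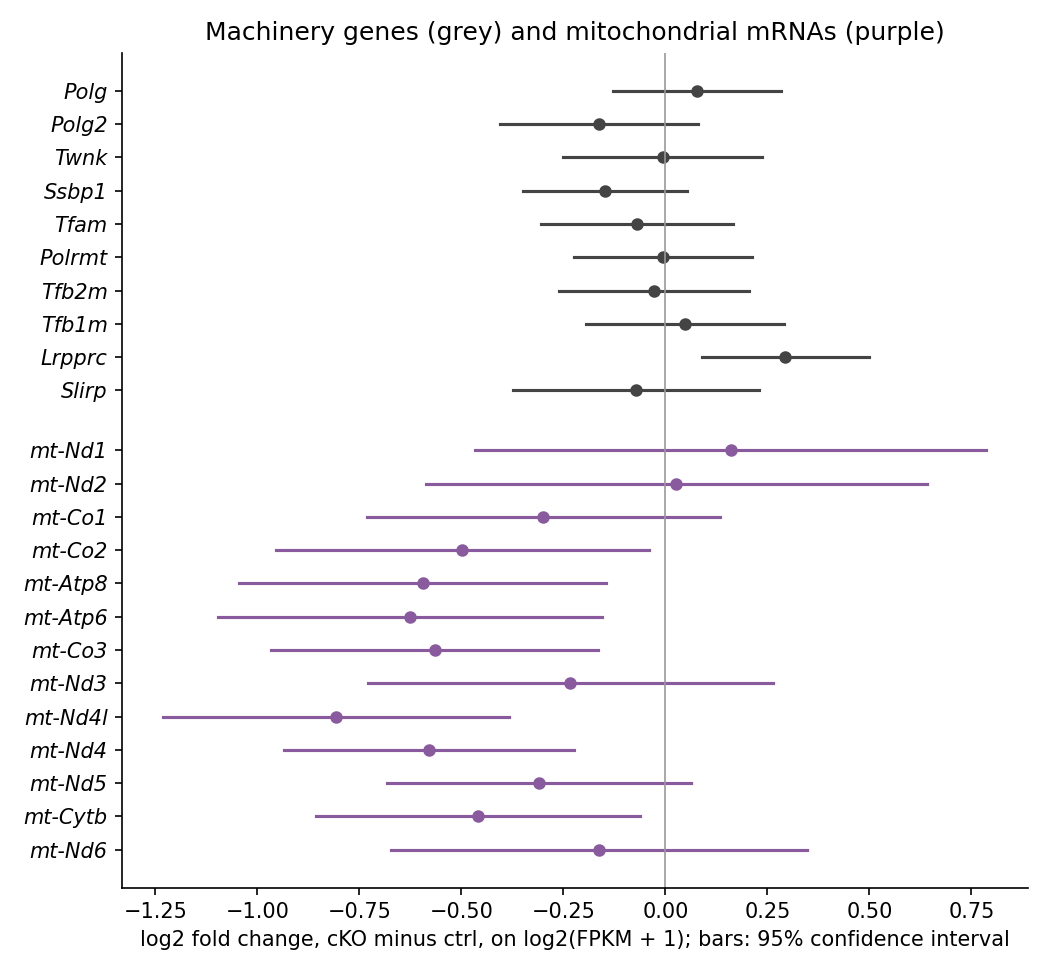
Log2 fold change (cKO minus ctrl, on the log2(FPKM + 1) scale) with its 95% confidence interval from limma for the 10 machinery genes (grey) and the 13 mitochondrial mRNAs (purple, in their order along the genome, with mt-Nd6 last). The interval of Lrpprc lies above 0 and those of the other 9 machinery genes include 0, while 7 of the mitochondrial mRNAs have intervals below 0.

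The intervals bound what these libraries leave possible. In the 9 genes other than Lrpprc the 95% confidence interval included 0, and over these genes the bounds ran from -0.41 to 0.29 on the log2 scale. Because 1 was added before taking logs, fold changes of weakly expressed genes come out too small, which bears on Polg2 in particular.

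Ratios between partner mRNAs within a library do not depend on how libraries are scaled to each other. In all, 6 pairs were compared, chosen after the values were seen, with two-sided exact permutation tests of the difference in mean ratio. Lrpprc to Slirp was 2.16, 1.98 and 2.21 in controls and 2.27, 2.84 and 3.24 in mutants. Polg to Polg2 was 2.58, 2.54 and 2.61 in controls and 3.28, 3.08 and 3.26 in mutants. In both pairs every mutant ratio was above every control ratio, although for Lrpprc to Slirp mutant replicate 1 was close to the controls. Each gave the smallest p that 3 against 3 libraries allow (exact permutation p = 0.1, 0.3 after Benjamini-Hochberg adjustment over the 6 pairs), so neither could pass the threshold. The mean difference was 0.665 for Lrpprc to Slirp, and 0.435 without mutant replicate 3. For Polg to Polg2 it was 0.630, and 0.592 to 0.693 when each library was left out in turn. The other 4 ratios, Tfb1m to Tfb2m, Polrmt to Tfb2m, Tfam to Polrmt and Ssbp1 to Twnk, overlapped between the groups, with exact permutation p from 0.4 to 1.

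**Figure D3:**
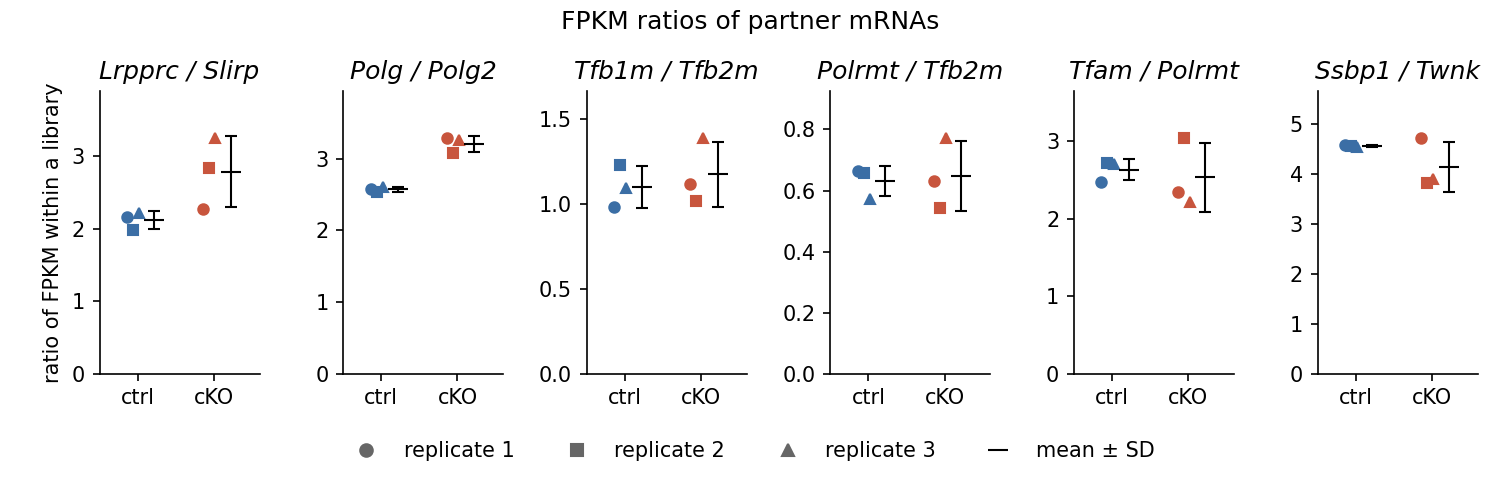
Ratio of FPKM between the mRNAs of 6 partner pairs in each control (ctrl) and mutant (cKO) library. Points are libraries, bars give the mean ± SD, and axes start at 0. Lrpprc to Slirp and Polg to Polg2 have all mutant points above all control points, and in the other 4 pairs the points of the groups overlap.

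The gene sums rest on 29 transcript rows of the table, and 5 of the 10 genes (Lrpprc, Polg2, Tfb1m, Tfb2m and Twnk) have 1 row each. For Polg, Polrmt and Tfam a leading transcript (Polg-201, Polrmt-201 and Tfam-201 in GENCODE) held 94.4%, 95.4% and 89.2% of the FPKM summed over libraries. Tfam-201 alone was at 10.6 to 11.7 FPKM in controls and at 10.1 and 10.8 in mutant replicates 1 and 3, with mutant replicate 2 above all other libraries, a log2 fold change of 0.02. The lower mean of Tfam lay in its minor rows. The shorter Tfam-203 was at 1.11, 1.35 and 1.13 in controls and at 0.732, 0.705 and 0.313 in mutants. Its mutant values were all below the controls (log2 fold change -0.48, standard error 0.17, adjusted p = 0.458 from limma over 20370 transcript rows), at a level around the filter.

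Ssbp1 was spread over 5 rows. Its most abundant row, Ssbp1-203, was at 11.8, 11.4 and 14.0 FPKM in controls, at 11.3 and 11.8 in mutant replicates 1 and 2, and at 3.60 in the library labelled mutant replicate 3. In that library Ssbp1-201 (9.72) and Ssbp1-205 (7.03) were the highest of all libraries. The low gene sum of Ssbp1 there was therefore a low value of 1 row among several of the same gene, and how fragments were divided among these overlapping transcripts is not stated in the sources used here. Ssbp1-202 was at 3.12, 2.47 and 2.59 in controls and at 1.97, 1.99 and 2.43 in mutants, also without overlap (adjusted p = 0.568).

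**Figure D4:**
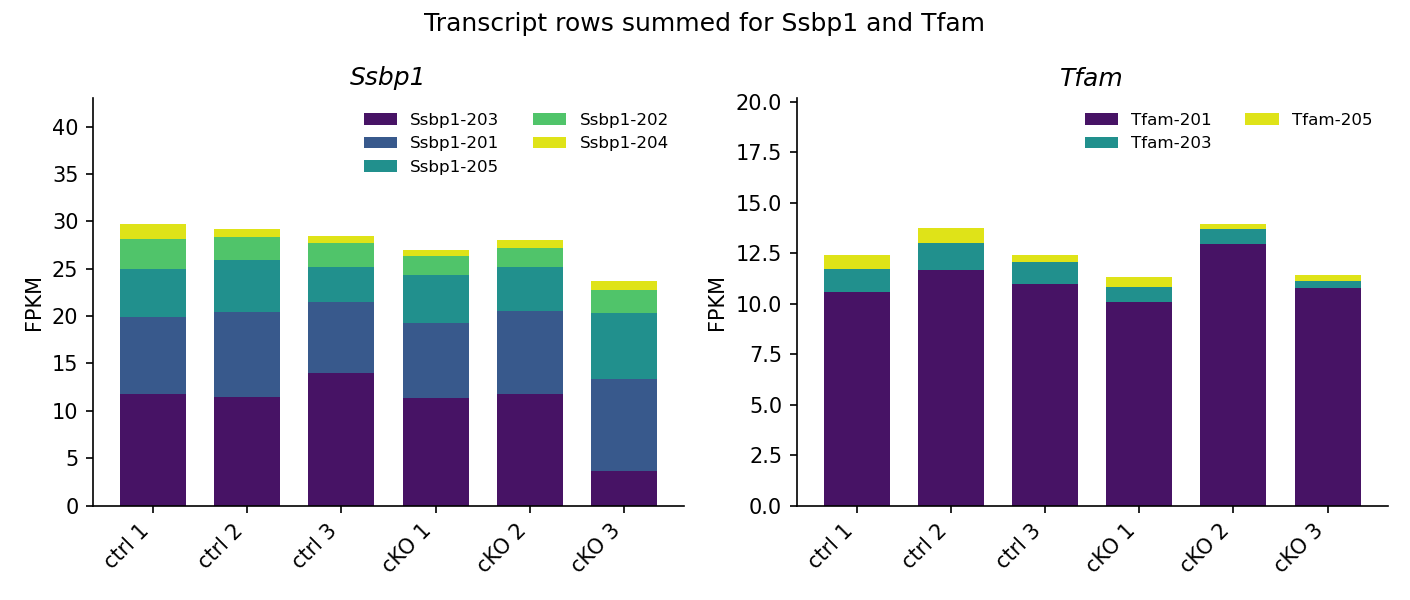
FPKM of the transcript rows of Ssbp1 and Tfam, stacked for each control (ctrl) and mutant (cKO) library, with GENCODE transcript names. The Ssbp1-203 part shrinks to 3.60 in the library labelled mutant replicate 3, and Tfam-201 makes up most of Tfam in every library.

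The mRNAs that this machinery produces had a lower mean in mutants for 11 of 13 genes (10 with quantile normalization). The 13 mitochondrial mRNAs summed to 71890, 67134 and 70431 FPKM in controls and to 54986, 63913 and 45525 in mutants. Their share of all FPKM was 15.8%, 14.3% and 15.0% in controls and 10.7%, 14.0% and 9.0% in mutants. All mutant shares were below all control shares, mutant replicate 2 only just (exact permutation p = 0.1, the smallest that 3 against 3 allow). With the erythroid markers left out of the total, the share was 16.5% to 18.0% in controls and 13.9%, 15.7% and 11.5% in mutants, also without overlap. Other RNA of erythroid cells stayed in that total, and their part in the difference was not tested. The median log2 fold change was -0.46 over the 13 mRNAs (-0.21 with quantile normalization), where it was -0.02 over the 10 machinery genes. Of the 13, 7 had an unadjusted p under 0.05, all lower, against 9.43% of all genes, and 8 were separated downwards, against 13.03%. The heavy-strand mRNAs are cut from a common precursor, so these are not counts of independent genes, unlike what a share of all genes assumes. The count of 7 became 4 without control replicate 3, 3 without mutant replicate 1, 4 without mutant replicate 3, 3 with the erythroid level as a covariate and 1 without the filter on low values. By limma, 0 of the 13 had an adjusted p under 0.05.

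The difference was uneven along the genome. Both mRNAs nearest the start of the heavy-strand coding sequence, mt-Nd1 and mt-Nd2, had a log2 fold change of 0.16 and 0.03, whereas all 10 heavy-strand mRNAs behind them had a lower mean in mutants, with the exception of mt-Nd3 under quantile normalization, where it was 0.10. That scaling also brought mt-Cytb from -0.46 to -0.01 and mt-Co3 from -0.56 to -0.14, beside mt-Nd1 at 0.03. The values of mt-Nd1 and mt-Nd2 depended on single libraries, on the covariate and on the scaling. They were -0.06 and -0.22 without mutant replicate 2, 0.43 and 0.34 without mutant replicate 3, 0.44 and 0.34 with the erythroid level as a covariate, and 0.03 and 0.24 with quantile normalization. Without mutant replicate 1 mt-Nd1 was at 0.10. For mt-Nd2 the value was also below 0 without control replicate 1 (-0.03), without mutant replicate 1 (-0.04) and when libraries were rescaled to nuclear genes outside the erythroid list (-0.01), and it was 0.11 without control replicate 2 and 0.00 without control replicate 3. The log2 fold change farthest from 0 was that of mt-Nd4l (with quantile normalization that of mt-Atp6, at -0.73 against -0.62). It measured 4061, 3219 and 3996 FPKM in controls and 2198, 2520 and 1762 in mutants (log2 fold change -0.81, standard error 0.18, adjusted p = 0.146). For mt-Nd1 the values were 7851, 8854 and 8305 in controls and 10057, 12575 and 6376 in mutants, so mutant replicates 1 and 2 were above and mutant replicate 3 below the controls. As a share of the FPKM of the 12 heavy-strand mRNAs, mt-Nd1 and mt-Nd2 together made up 14.3%, 17.9% and 15.3% in controls and 23.9%, 25.8% and 18.1% in mutants. Every mutant share was above every control share (exact permutation p = 0.1), with mutant replicate 3 at 18.1% next to control replicate 2 at 17.9%. This share was chosen after the values were seen.

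**Figure D5:**
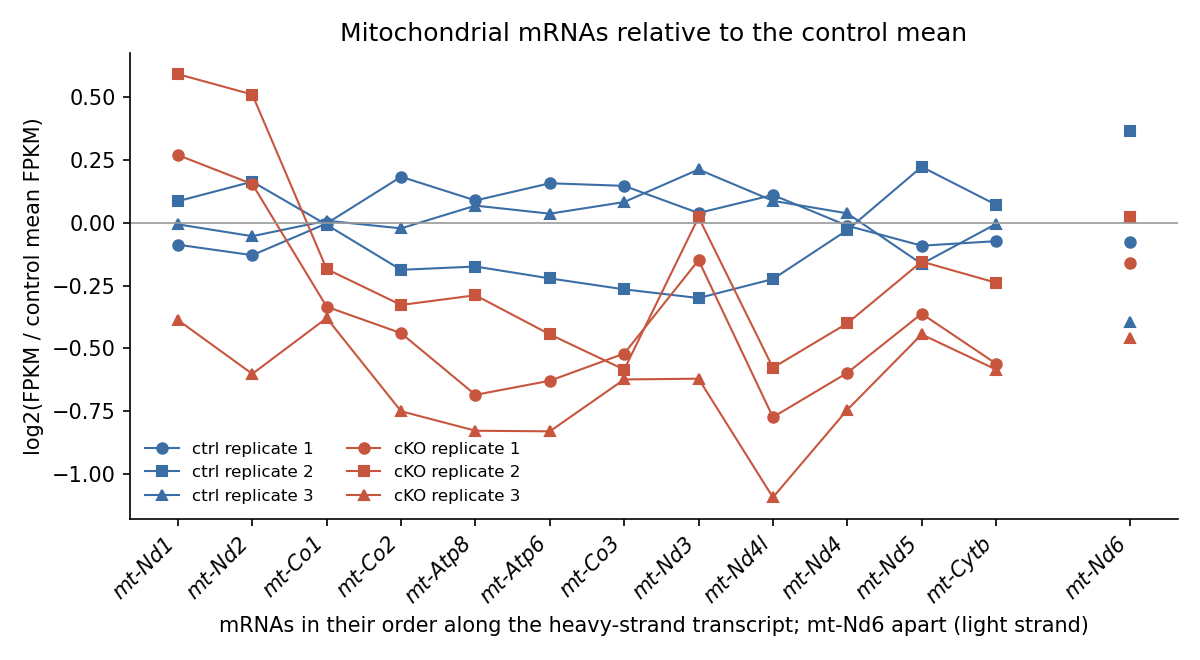
FPKM of each mitochondrial mRNA relative to its control mean, on a log2 scale, with the 12 heavy-strand mRNAs in their order along the precursor and the light-strand mRNA mt-Nd6 apart. Lines join the values of a library. In mutant (cKO) replicates 1 and 2 mt-Nd1 and mt-Nd2 lie above 0 and most mRNAs behind them below, and in replicate 3 all lie below 0.

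Apart from the common precursor, the genes of 2 neighbouring pairs share bases, so values within a pair are not independent for this reason too. The end of mt-Atp8 and the beginning of mt-Atp6 share 43 bases, and mt-Nd4l and mt-Nd4 share 7. A read within these bases can belong to either gene of a pair, and the members of a pair sit on a common mRNA. The shared bases are shown in capitals, with 12 bases on each side, from GENCODE M21 transcripts (GRCm38). They include the ATG start codon of the second gene at their first position.
mt-Atp8 into mt-Atp6, chrM:7915-7981, plus strand: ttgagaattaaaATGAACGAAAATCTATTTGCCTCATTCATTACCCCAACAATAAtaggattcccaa
mt-Nd4l into mt-Nd4, chrM:10155-10185, plus strand: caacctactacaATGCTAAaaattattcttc

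In the first pair the log2 fold change was -0.60 for mt-Atp8 and -0.63 for mt-Atp6, and in the second it was -0.81 for mt-Nd4l and -0.58 for mt-Nd4. With quantile normalization it was -0.31 for mt-Atp8, -0.73 for mt-Atp6, -0.62 for mt-Nd4l and -0.32 for mt-Nd4. The ratio of mt-Nd6, the mRNA copied from the opposite strand, to the 12 heavy-strand mRNAs summed was 0.0356, 0.0528 and 0.0290 in controls and 0.0444, 0.0433 and 0.0435 in mutants. The mutant values lay inside the control range (exact permutation p = 0.7). Whether the quantification used strand is not stated in the sources used here, so reads of the opposite strand at mt-Nd6 cannot be told apart.

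Other genes that serve mitochondrial DNA and its transcripts were grouped by role, and 0 of the genes in these lists had an adjusted p under 0.05. Counts and names below are at an unadjusted p under 0.05, and named genes also had values without overlap between the groups, with adjusted p from 0.139 to 0.313. At this threshold 5.58% of all genes were higher and 9.43% lower. Of 13 genes listed for replication and repair, 1 was higher and 2 were lower, near those shares. Atad3a, encoding a membrane protein at nucleoids, was at 18.6 to 20.5 FPKM in controls and 22.4 to 25.7 in mutants (log2 fold change 0.27). Dna2, a nuclease and helicase gene, was at 10.8 to 12.3 in controls and 8.39 to 9.86 in mutants (-0.26). Slc25a4, in this list although it encodes the ADP/ATP carrier and not a replication protein, was at 328 to 366 and 273 to 309 (-0.25).

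Of 14 genes of nucleotide supply, 1 was higher and 1 lower, again near the shares of all genes (5.58% and 9.43%), and both encode pyrimidine nucleotide carriers of the inner membrane. Slc25a33 was at 1.67, 1.26 and 2.32 FPKM in controls and at 5.57, 5.94 and 2.51 in mutants, a log2 fold change of 1.00 (standard error 0.27). The library labelled mutant replicate 3 was only just above the controls. Slc25a36 was at 37.5 to 41.5 in controls and 26.5 to 32.2 in mutants (log2 fold change -0.37). In the 7 genes of elongation and termination, which include Tefm and Mterf1a, 0 passed at an unadjusted p under 0.05 and the log2 fold changes lay between -0.23 and 0.05.

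Of 25 genes of RNA processing, modification and decay, 1 was higher and 0 lower, where 5.58% and 9.43% of all genes were. It was Rexo2, encoding an oligoribonuclease that clears short RNAs, at 24.8 to 28.3 FPKM in controls and 32.0 to 35.6 in mutants (log2 fold change 0.36, standard error 0.09). The median log2 fold change of the list was 0.00.

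Among 12 nuclear regulators, 2 were higher and 3 lower, against 5.58% and 9.43% of all genes. Ppargc1a, encoding the coactivator PGC-1α, was at 15.7 to 16.1 FPKM in controls and at 12.7, 13.1 and 12.9 in mutants, a log2 fold change of -0.29 (standard error 0.08). Both groups were tight and well apart. The estrogen-related receptor genes Esrrg (13.7 to 15.0 in controls, 9.66 to 12.1 in mutants, log2 fold change -0.40) and Esrra (10.9 to 13.4 in controls, 9.94 to 10.8 in mutants, -0.24) were lower as well. Myc, a transcription factor gene, was at 8.56 to 12.4 in controls and 13.8 to 17.1 in mutants (log2 fold change 0.58).

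Of 7 genes whose products turn over or bind nucleoids, 3 were higher and 0 lower, against 5.58% and 9.43% of all genes. Lonp1, encoding the matrix protease that degrades TFAM, was at 24.2, 23.1 and 25.6 FPKM in controls and at 59.7, 58.3 and 32.4 in mutants (log2 fold change 0.96, standard error 0.21). All mutants were above the controls, with the library labelled mutant replicate 3 nearest to them. That library was also the nearest for the chaperone gene Hspa9, at 112 to 127 in controls and 205, 226 and 145 in mutants (0.63). Clpp, a second matrix protease gene, was at 15.8 to 18.1 in controls and 19.4 to 20.9 in mutants (0.23).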

How the data were processed

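Ribosomal RNA was removed from total RNA of pooled embryonic hearts, and strand-specific libraries were sequenced by the authors. The authors deposited FPKM by transcript and library in a table, and no other scaling of the 6 libraries is stated. The submitters' processing notes name Bowtie2 2.2.8, HISAT2, StringTie 1.3.1, Cuffdiff 2.1.1 and the genome build mm9, with no role or order. The annotation release is not given in the sources used here. Since FPKM are estimates, splitting between overlapping transcripts can move transcript values more than gene sums.

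Transcripts of each gene were summed, and genes reaching 1 FPKM in 3 or more libraries were kept (13262). Their log2(FPKM + 1) values entered a linear model per gene in limma 3.58.1 (R 4.3.3), with moderated variances that follow the mean level. P was adjusted over all genes by the Benjamini-Hochberg method. Within-library ratios and shares were compared by exact permutation tests (SciPy 1.17.1). The script was tested on simulated data. The fit of transcript rows, the partner ratios and the share of mt-Nd1 and mt-Nd2 were chosen after the values were seen. The members and gene lists were chosen with earlier results of these data known. All members and mitochondrial mRNAs are named, and of each further list the genes with an unadjusted p under 0.05 and no overlap, at most 4 by p. Prorp was found under the older symbol 1110008L16Rik. The mitochondrial rRNAs were not analysed here. The controls were littermates of the mutants, but the labels do not say which pools shared litters, so p measures the spread between these libraries. Promoters are those of RefSeq (GRCm38.p6) and mitochondrial overlaps those of GENCODE M21 (GRCm38), used for sequence and gene order only.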

Additional observations from a re-analysis of the deposited data

How the results depend on the processing

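The count of machinery genes at an unadjusted p under 0.05 was 1, Lrpprc, in all 15 alternatives, and its log2 fold change ranged from 0.25 to 0.36. Polg, Polg2, Ssbp1 and Lrpprc kept their direction in every alternative run on them. The most abundant transcript alone gave -0.57 for Ssbp1 and 0.0208 for Polg, and quantile normalization gave -0.0637 for Polg2. Values near 0 changed sign: Tfam to 0.0189 for its most abundant transcript alone and 0.0522 with the erythroid level as a covariate, Twnk to 0.0183 with quantile normalization and 0.121 with that covariate, Polrmt to 0.0319 with quantile normalization, and Tfb2m to 0.0695 with the covariate. When each library was left out in turn, the range was 0.0368 to 0.124 for Polg, -0.203 to -0.125 for Polg2, -0.159 to -0.0216 for Tfam, -0.0982 to 0.0587 for Twnk, -0.0417 to 0.0283 for Polrmt, -0.0420 to 0.119 for Tfb1m, -0.0995 to 0.0501 for Tfb2m and -0.160 to 0.0413 for Slirp. The cause of these changes was not tested. Polg2 and Polrmt did not reach a mean FPKM of 5 and have no value under that filter.

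Over all genes, 1991 had an unadjusted p under 0.05 (1314 with a mean FPKM of at least 5, where fewer genes were tested, and 1177 to 2173 when each library was left out in turn). Of them 740 were higher and 1251 lower, where rescaling to nuclear genes outside the erythroid list gave 544 and 1519 and the erythroid covariate 742 and 750. At an adjusted p under 0.05 there were 11, and 5 without the filter, 4 with the replicate block, 4 for the most abundant transcript alone, 6 without the trend, 7 with the erythroid covariate, and 3 to 261 when each library was left out (4 without control replicate 1, 4 without control replicate 2, 3 without control replicate 3, 7 without mutant replicate 1, 123 without mutant replicate 2 and 261 without mutant replicate 3). The 7 mitochondrial mRNAs at an unadjusted p under 0.05 became 1 without the filter, 3 with the erythroid covariate and 3 to 8 when each library was left out.

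Deviations from the group means of libraries with the same replicate number correlated at 0.215, 0.108 and 0.0892 for numbers 1, 2 and 3, and each library correlated best with its own number. The labels do not say that these numbers mark pairs, so the main fit took none and the block was run as an alternative. With the replicate block 1 machinery gene and 6 mitochondrial mRNAs were called, and 4 genes in all at an adjusted p under 0.05.

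The mean difference in the ratio of mt-Nd6 to the heavy-strand mRNAs was 0.00459 and ranged from -0.000481 to 0.0114 when each library was left out. The range was -0.0328 to 0.152 for Tfb1m to Tfb2m, -0.0445 to 0.0698 for Polrmt to Tfb2m and -0.352 to 0.0561 for Tfam to Polrmt. Ssbp1 to Twnk, at -0.417 over all libraries, ran from -0.701 without mutant replicate 1 to -0.255 without mutant replicate 2. The share held by the 13 mitochondrial mRNAs was lower in mutants in all 8 alternatives, with a difference of -5.22 to -2.72 percentage points. Depth is known only as a ratio between libraries, so counting error could not be separated from other spread.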

Other observations

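Markers of the remaining cell types of the heart were compared as lists, at an unadjusted p under 0.05, where 5.58% of all genes were higher and 9.43% lower. Of 7 endothelial and endocardial markers, 1 was higher and 1 lower by limma, with a median log2 fold change of -0.02. Of 5 epicardial and of 5 mesenchymal and cushion markers 0 were called, with medians of 0.08 and 0.05. Of 3 smooth muscle markers 1 was lower, with a median of -0.25, and of 3 liver markers 0 were called, with a median of 0.29. Of 3 leukocyte markers 2 passed the filter and 0 were called. Among the 10 cardiomyocyte markers 4 were lower and 1 higher at that threshold, and of the 10 erythroid markers 4 were higher. Tnnt2, encoding cardiac troponin T, was at 948 to 1044 FPKM in controls and 617 to 683 in mutants (log2 fold change -0.60, adjusted p = 0.0954), while Nppa, the atrial natriuretic peptide gene, was at 620 to 793 in controls and 1397, 1463 and 781 in mutant replicates 1, 2 and 3.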
